A study of Mus musculus with 12 samples.

Results

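The 10 genes described here are immediate early genes outside the FOS and JUN family: Egr1, Egr2 and Egr3, Ier2, Ier3 and Ier5, Nr4a1 and Nr4a2, and Btg2 and Zfp36. They were taken by symbol from the 23422 gene identifiers of the deposited table, and all 10 were found. The 12 RNA-seq libraries came from primary endothelial cells of the lung (MLECs), isolated from C57BL/6J (wild type) or MLK2-/-MLK3-/- mice, here called double knockout. Monolayers of both genotypes, in the same medium with fetal bovine serum, endothelial mitogen and heparin, were kept in normoxia (21% O2) or exposed to hypoxia (1% O2) for 90 min, which gave 4 groups of 3 libraries. The study's stated purpose was to find pathways downstream of the MLK family, kinases that act above the JNK and p38 cascades. The labels do not give the age of the mice, whether the knockout is limited to a cell type, or whether replicate libraries were made from different mice or cultures, so p-values measure only the spread between these libraries.

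Immediate early genes are switched on by signals that reach existing transcription factors, without new protein synthesis, and their mRNAs are usually short-lived. In endothelium they answer to growth factors, serum, shear stress, inflammatory cytokines and low oxygen. Serum response factor with its ETS-family partners binds CArG boxes, and CREB binds cAMP response elements, in the promoters of many of them. EGR1, EGR2 and EGR3 are zinc finger transcription factors, and NR4A1 and NR4A2 are orphan nuclear receptors. IER2 and IER5 are related nuclear proteins, and IER3 is a short stress protein linked to cell survival. BTG2 is an antiproliferative protein that recruits the CCR4-NOT deadenylase, and ZFP36 (tristetraprolin) binds AU-rich elements in 3′ UTRs and brings the same deadenylase to them.

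The members are small genes with few introns. In GENCODE M21 (GRCm38) their main transcripts had a median of 2 exons (range 1 to 8), against a median of 9 over the 10778 tested genes with an annotated transcript. The median gene span was 4556.5 bases against 24156 over tested genes, while the median transcript length, 2704 bases, was close to the 2753.5 bases of tested genes. Ier2 (chr8:84661331-84662852, minus strand) and Ier5 (chr1:155096361-155099636, minus strand) have a single exon. Ier3 (chr17:35821684-35822923, plus strand) and Btg2 (chr1:134075170-134079120, minus strand) have 2 exons each. Nr4a2 (chr2:57106830-57124003, minus strand) has 8, and Nr4a1 (chr15:101254269-101274795, plus strand) has 7. Egr1 (chr18:34859823-34864984), Egr2 (chr10:67535475-67542188) and Egr3 (chr14:70077203-70082614) lie on the plus strand. Zfp36 (chr7:28376784-28380253, minus strand) overlaps an antisense gene model, Gm44710, and whether the authors' FPKM used strand is not given in the sources used here.

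Promoter sequence was available for 7 of the 10 genes in RefSeq (GRCm38.p6), in 11 windows, as Egr2 has 5 and each other gene 1. A gene is listed for a motif where any of its windows holds it, while the shares over all promoters are per window. Motifs were counted in the full 250 bases before each start, in the members and in all promoters alike, and bases inside a GENCODE exon were left out of the printed sequences. The whole Zfp36 window lies in a GENCODE exon, so its matches are counted but not printed. The promoters below belong to Ier3, the member with the largest hypoxia response, and to Btg2 and Ier5, whose levels differed between conditions or genotypes. Also shown are those of Nr4a2, the low member that separated by oxygen, and of Egr2, whose mRNA stayed near the detection limit. A single window of the 5 of Egr2 is printed, and it holds both a CArG box and copies of the core of the cAMP response element. Capitals mark matches on either strand to 1 of the motifs named below; the sequences run 5′ to 3′ on the gene's strand.

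Ier3 (chr17:35821463-35821683, plus strand): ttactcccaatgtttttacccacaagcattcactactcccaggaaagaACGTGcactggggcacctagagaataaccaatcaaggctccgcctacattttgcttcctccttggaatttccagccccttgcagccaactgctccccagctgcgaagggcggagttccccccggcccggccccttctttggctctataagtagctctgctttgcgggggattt
Btg2 (chr1:134079156-134079405, minus strand): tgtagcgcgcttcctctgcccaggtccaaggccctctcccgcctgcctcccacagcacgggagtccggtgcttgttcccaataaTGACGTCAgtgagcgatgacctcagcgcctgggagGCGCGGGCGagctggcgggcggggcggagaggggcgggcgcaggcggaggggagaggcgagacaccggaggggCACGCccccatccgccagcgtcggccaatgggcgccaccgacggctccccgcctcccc
Ier5 (chr1:155099637-155099886, minus strand): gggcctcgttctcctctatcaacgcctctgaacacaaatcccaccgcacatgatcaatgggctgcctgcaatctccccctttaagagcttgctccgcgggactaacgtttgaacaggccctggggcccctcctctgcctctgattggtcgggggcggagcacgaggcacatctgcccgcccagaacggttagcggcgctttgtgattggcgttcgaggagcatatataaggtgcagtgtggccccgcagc
Nr4a2 (chr2:57124004-57124253, minus strand): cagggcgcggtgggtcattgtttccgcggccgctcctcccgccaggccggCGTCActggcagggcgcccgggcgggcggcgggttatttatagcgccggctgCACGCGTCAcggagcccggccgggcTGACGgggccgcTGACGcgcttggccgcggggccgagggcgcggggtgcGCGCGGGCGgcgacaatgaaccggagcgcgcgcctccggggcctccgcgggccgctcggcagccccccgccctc
Egr2 (chr10:67537619-67537868, plus strand): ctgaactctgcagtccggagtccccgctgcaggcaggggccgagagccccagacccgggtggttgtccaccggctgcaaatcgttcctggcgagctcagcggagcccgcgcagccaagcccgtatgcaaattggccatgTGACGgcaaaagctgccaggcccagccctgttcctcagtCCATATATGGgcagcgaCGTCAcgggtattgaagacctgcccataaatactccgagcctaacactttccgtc

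A full cAMP response element, TGACGTCA, was in the window of Btg2 at positions -166 to -159 from the start; 1.55% of the 32851 promoters in the RefSeq table hold it. Its core, TGACG, which lies inside it, was in the windows of Egr2, Nr4a1, Nr4a2 and Btg2, against 17.8% of all promoters. The CArG box was in the windows of Egr2 and Zfp36 and in 1.47% of all promoters; the Egr2 copy shown above reads CCATATATGG. The EGR site, GCGNGGGCG, was in the windows of Nr4a1, Nr4a2, Btg2 and Zfp36 (4.70% of all promoters). The ETS core, CCGGAA, was in those of Egr2, Nr4a1 and Zfp36 (12.0%), for Egr2 in a window not printed here. The core of the hypoxia response element, ACGTG or GCGTG, was in 6 of the 11 windows, each of a different gene. It is also in 38.6% of all promoters. The Zfp36 copy lies in annotated exon sequence, and the Egr2 copy, in a window not printed here, runs into such sequence. The Ier3 copy is ACGTG at -202 to -198 and was the only match in that window; Ier5 had no match to any of the motifs. Of the TATA box, only the form TATAAA on the gene's strand was searched, and not its variants. This form (7.59% of all promoters) and the AP-1 site, TGANTCA (6.75%), were in no window. These are letter matches only, and the GC content of some windows is high: 73.2% in Btg2 and 80.0% in Nr4a2, against a median of 52.4% over all promoters.

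AU-rich heptamers (TATTTAT in the DNA letters of the reference), the core to which ZFP36 proteins bind, were counted in the annotated 3′ UTRs because they mark short-lived mRNAs. Ier3 holds 4 in 613 bases; among 1230 3′ UTRs within 20% of that length, 0.244% hold as many and 18.4% hold any. Zfp36 holds 3 in 774 bases, a count reached by 0.624% of 3′ UTRs of like length. Btg2 and Nr4a2 hold 1 each, and the other 6 members hold none. The 30 bases around the first heptamers, with the heptamers in capitals and positions counted from the first base of the 3′ UTR, are printed for these 4 genes.

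Ier3, bases 171 to 200: tgtctaattaaTATTTATgTATTTATgtat
Zfp36, bases 567 to 596: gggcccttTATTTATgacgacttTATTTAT
Btg2, bases 92 to 121: aaatgaagagcTATTTATacatgttttttt
Nr4a2, bases 583 to 612: tattttgtgccTATTTATgaataaatatta

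The cells carried the markers of their label, and the targeted genes were reduced in the double knockout, Map3k11 less than Map3k10. The summed level of 10 endothelial markers, among them Pecam1 and Cdh5, was 2827 to 3045 FPKM in all 12 libraries, although 1 of the 10, Vwf, was only 0.0688 to 0.208 FPKM. Most of the sum was Emcn and Pecam1 (means 1263 and 582 FPKM), so single markers could change within it. Of 9 tested, 1 was higher and 1 lower in wild type hypoxia, and 4 were higher and 2 lower in double knockout hypoxia. Cldn5 was 274.4 to 318.3 FPKM in double knockout normoxia and 183.7 to 214.9 FPKM in double knockout hypoxia. Map3k10 (MLK2) was 16.6 to 19.2 FPKM in wild type libraries, 0.131 to 0.169 in double knockout normoxia and 1.02 to 1.34 in double knockout hypoxia; Map3k11 (MLK3) was 31.9 to 36.4 FPKM against 10.9 to 12.2 FPKM. Of 8 tested targets of hypoxia-inducible factor (HIF), 6 were higher and 0 lower in wild type hypoxia, and 6 higher and 1 lower in double knockout hypoxia, for example Bnip3, which rose by 3.05 and 3.00 (log2), while Ndrg1 fell by 0.24 in double knockout. Over all genes, 20.8% were called in wild type hypoxia and 39.3% in double knockout hypoxia. Depth, estimated from the steps in low FPKM values, was 21200000 to 26000000 fragments per library.

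The levels of the 10 members differed widely, and Egr1, Nr4a1, Egr2 and Egr3 had the lowest means. As means over the 12 libraries, Ier3 stood at 235 FPKM, Btg2 at 176 FPKM and Ier5 at 60.7 FPKM, above 98.0%, 97.3% and 92.2% of the 21558 genes with a value above 0. Ier2 stood at 7.74 FPKM, above 66.9% of those genes. The other 6 were below 1 FPKM: Nr4a2 at 0.821, Zfp36 at 0.492, Egr1 at 0.204, Nr4a1 at 0.155, Egr2 at 0.130 and Egr3 at 0.0148 FPKM. The ranges of Nr4a2 (0.496 to 1.303) and Zfp36 (0.213 to 0.780) overlapped, as did those of Egr1 (0.103 to 0.292), Nr4a1 (0.0549 to 0.255) and Egr2 (0.0505 to 0.243). The 2 highest members changed places: Btg2 was above Ier3 in every normoxia library of both genotypes, and Ier3 was above Btg2 in every hypoxia library. FPKM is per length, so these levels can be set side by side between genes.

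**Figure D1:**
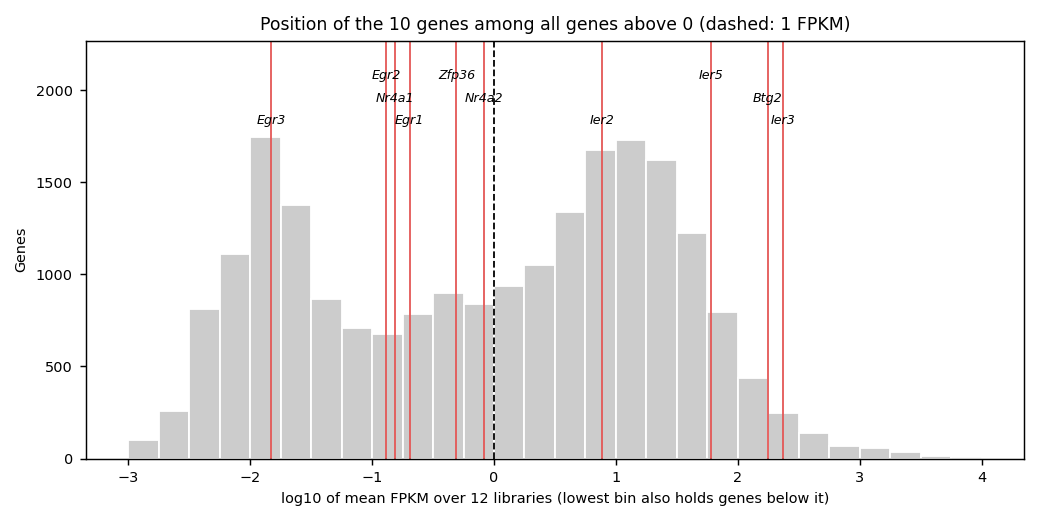
Number of genes (vertical axis) by log10 of the mean FPKM over 12 libraries (horizontal axis), with red lines at the 10 genes and a dashed line at 1 FPKM. Ier3, Btg2 and Ier5 lie in the upper tail, Ier2 near the middle of the expressed genes, and the other 6 to the left of 1 FPKM.

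Zfp36 was low beside its closest relatives, while those of the EGR and NR4A members were also below 1 FPKM. Zfp36l2 and Zfp36l1, AU-rich element binding proteins of the ZFP36 family, had means of 21.4 and 2.43 FPKM. Egr4 had 0.0265 FPKM and Nr4a3 had 0.0550 FPKM. Fos (0.572 FPKM), Fosb (0.0960 FPKM) and Arc (0.0772 FPKM), further immediate early genes that respond to growth factors, were also below 1 FPKM, whereas Jun and Junb had 26.1 and 48.3 FPKM.

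The low members rested on few fragments. By the depth estimate, each library held 8.91 to 22.9 fragments of Egr1, 2.98 to 17.0 of Egr2 and 2.99 to 12.0 of Nr4a1. Nr4a2 had 32.7 to 99.9 fragments per library and Zfp36 had 13.1 to 47.6. Egr3 was listed at 0 in 10 of 12 libraries, and a level of up to 0.0935 to 0.115 FPKM, the worth of 3 fragments, could not be told from 0. Such fragment numbers allow large changes to be seen and small ones not. Btg2, by contrast, had at least 8317 fragments in each library, Ier5 at least 3536, Ier3 at least 2476 and Ier2 at least 181.

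**Figure D2:**
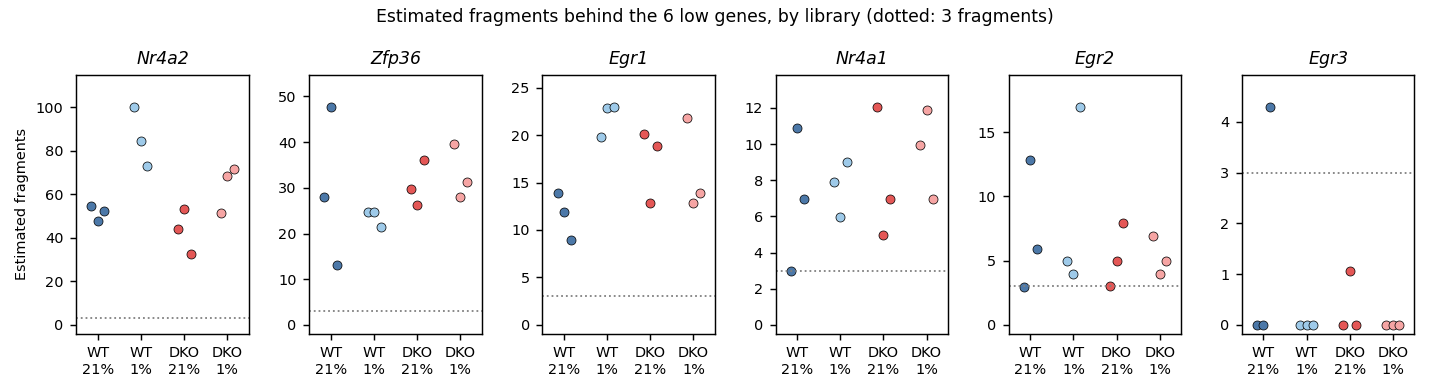
Estimated fragments (vertical axes, each panel with its own scale) of the 6 genes below 1 FPKM in each library, by group; dotted lines mark 3 fragments. Egr3 lies above 3 fragments in 1 library, while Nr4a2 has 32.7 to 99.9 fragments, with the highest value in wild type hypoxia.

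Hypoxia raised 1 of the 4 testable members in wild type cells. Genes that averaged 1 FPKM or more were compared by limma on log2(FPKM + 1), with adjustment by Benjamini-Hochberg over all 11378 genes and a threshold of 0.05. The 4 members that passed the filter were Ier3, Btg2, Ier5 and Ier2. In wild type cells, Ier3 was higher and the other 3 did not pass; over all genes tested, 20.8% were called, 10.5% higher and 10.4% lower. The median difference of the 4 was 0.07 (log2), against 0.00 over all genes. Log2 differences on this scale understate the change of low genes, and in bulk RNA a change in the number of cells of a type cannot be told apart from a change in RNA per cell.

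Ier3, the stress and survival gene, measured 118.6, 119.0 and 124.3 FPKM at 21% O2 in wild type cells, and 335.6, 294.9 and 244.3 FPKM at 1% O2. Every hypoxia library lay above every normoxia library, and the hypoxia libraries were spread more widely (291.6 ± 45.8 FPKM, SD, n = 3) than the normoxia libraries (120.7 ± 3.19 FPKM, SD, n = 3). The ratio of means was 2.42. The log2 difference was 1.25 ± 0.09 (SE; 95% interval 1.06 to 1.44), with a limma adjusted p of 2.51e-06, rank 35 of 11378 genes by p.

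The other 3 tested members did not separate by oxygen in wild type cells. Btg2 measured 169.0, 168.3 and 180.2 FPKM at 21% O2, and 171.8, 178.6 and 179.4 FPKM at 1% O2 (log2 difference 0.03, 95% interval -0.06 to 0.13, limma adjusted p = 0.621). Ier5 measured 58.1, 53.9 and 55.1 FPKM at 21% O2, and 52.99, 51.90 and 53.91 FPKM at 1% O2 (-0.07, interval -0.16 to 0.02, adjusted p = 0.251). Ier2 measured 7.54, 7.75 and 8.34 FPKM at 21% O2, and 8.58, 8.88 and 8.14 FPKM at 1% O2 (0.10, interval -0.07 to 0.28, adjusted p = 0.396). The groups overlapped for each of these 3 genes. Groups without overlap were seen in 38.3% of all genes in this comparison. Ier5 passed the threshold, lower in hypoxia, with quantile normalization alone (adjusted p = 0.0401), and the direction for Btg2 turned there (-0.00027).

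**Figure D3:**
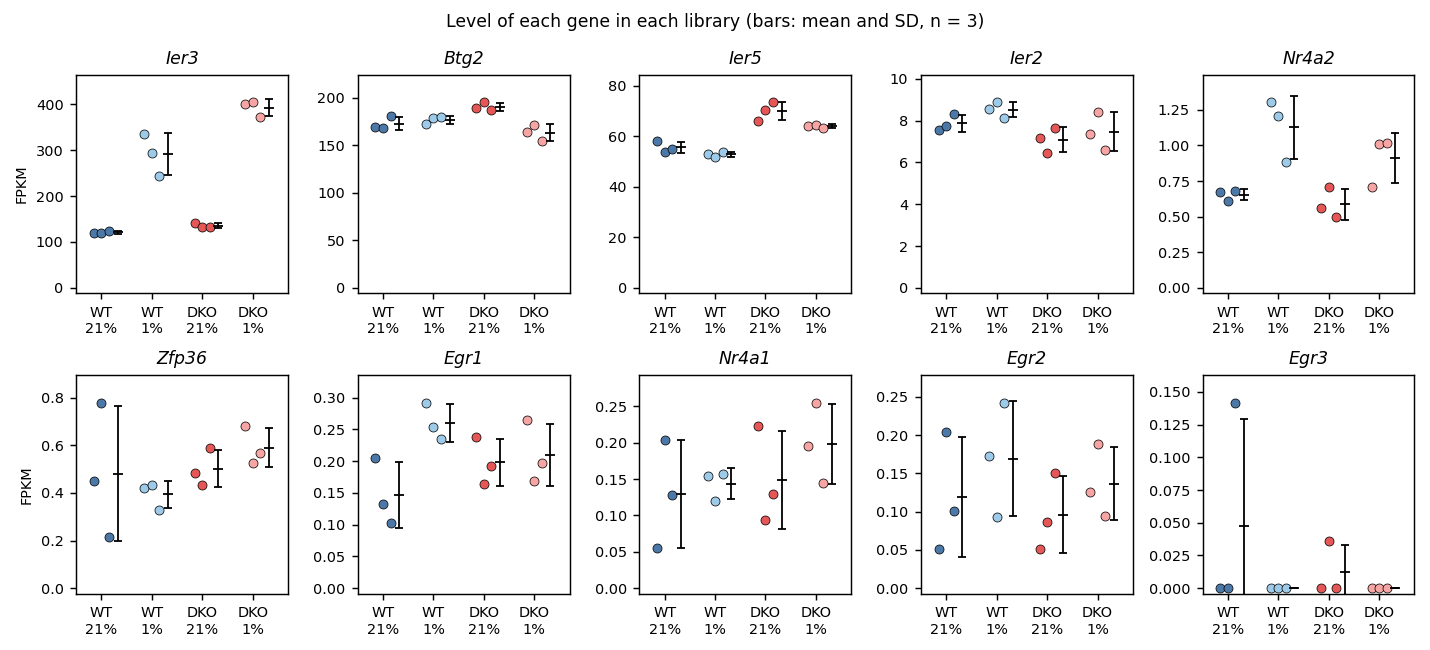
FPKM of each of the 10 genes in each library (points), with the mean and SD of each group (bars, n = 3); WT is wild type, DKO double knockout, and 21% or 1% the oxygen level. Vertical axes differ between panels. The Ier3 points in 1% oxygen, 244.3 to 404.3 FPKM, all lie above those in 21% oxygen, 118.6 to 142.2 FPKM.

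In double knockout cells hypoxia raised Ier3 and lowered Btg2 and Ier5. Of the 4 tested members, 1 was higher, 2 were lower and 1 did not pass, where 39.3% of all genes were called, 19.6% higher and 19.6% lower. Ier3 measured 142.2, 132.7 and 131.9 FPKM at 21% O2, and 401.4, 404.3 and 371.6 FPKM at 1% O2, with no overlap and a ratio of means of 2.89. Its log2 difference was 1.53 ± 0.09 (SE; interval 1.34 to 1.72; limma adjusted p = 3.17e-07), rank 31 of 11378 by p. The median difference of the 4 members was -0.03, against 0.01 over all genes.

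Btg2, the BTG-family recruiter of the deadenylase, was 188.6, 195.0 and 186.8 FPKM in double knockout normoxia and 163.8, 171.3 and 153.9 FPKM in double knockout hypoxia. All hypoxia libraries were below all normoxia libraries, as groups were apart for 50.3% of all genes in this comparison. The log2 difference was -0.22 ± 0.04 (SE; interval -0.32 to -0.13; limma adjusted p = 0.00161). Ier5 was 66.2, 70.4 and 73.5 FPKM in double knockout normoxia and 64.3, 64.5 and 63.2 FPKM in double knockout hypoxia, again without overlap but by a small step. Its log2 difference was -0.13 ± 0.04 (SE; limma adjusted p = 0.0296). The Ier5 call did not hold without double knockout normoxia replicate 2 (adjusted p = 0.0776) or 3 (0.111), without double knockout hypoxia replicate 1 (0.0643), 2 (0.0565) or 3 (0.0835), or with the libraries of the comparison alone (0.0574). Ier2 measured 7.19, 6.45 and 7.63 FPKM at 21% O2, and 7.38, 8.44 and 6.61 FPKM at 1% O2, with overlap (0.06, adjusted p = 0.562), and its direction turned without double knockout hypoxia replicate 2 (-0.016).

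Of the 6 members below 1 FPKM, Nr4a2 was the one whose libraries separated by oxygen over both genotypes. Nr4a2, an orphan nuclear receptor, was 0.673, 0.608 and 0.681 FPKM in wild type normoxia and 1.303, 1.204 and 0.881 FPKM in wild type hypoxia. It was 0.561, 0.708 and 0.496 FPKM in double knockout normoxia and 0.710, 1.01 and 1.02 FPKM in double knockout hypoxia. All 6 hypoxia libraries (1.02 ± 0.21 FPKM, SD) were above all 6 normoxia libraries (0.621 ± 0.081 FPKM, SD), the lowest hypoxia library by a margin of less than 1 fragment's worth (two-sided exact permutation test, p = 0.002165, the smallest that 6 against 6 libraries allow). All 6 libraries lay apart by oxygen in this way for 7.04% of the 1009 genes with a mean of 0.5 to 1 FPKM and for 19.1% of the 11378 genes above that. The permutation p is not adjusted and is 1 of 12 computed for the 6 low members. Libraries were shuffled across both genotypes, so this p does not hold genotype fixed. In a fit without the filter on low values, over 21558 genes, the limma adjusted p was 0.0365 in wild type (log2 difference 0.36) and 0.0687 in double knockout (0.27). The deposited values split Nr4a2 between 3 transcripts in proportions that changed from library to library, so only their sum is used. Egr1 and Egr2 were also split unevenly between transcripts. A summed FPKM still depends on the length of the transcripts to which fragments were assigned. Egr2 had 0.188 FPKM from 3.97 estimated fragments in double knockout hypoxia replicate 2. In wild type normoxia replicate 3 it had 0.101 FPKM from 5.94.

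For Egr1, the zinc finger factor most often used as a marker of the immediate early response, wild type normoxia had 0.204, 0.133 and 0.103 FPKM and wild type hypoxia 0.292, 0.253 and 0.235 FPKM. These wild type groups did not overlap, as was also seen in 38.3% of genes that averaged 1 FPKM or more. Double knockout normoxia had 0.238, 0.164 and 0.192 FPKM and double knockout hypoxia 0.264, 0.169 and 0.197 FPKM, which overlapped. Over both genotypes Egr1 was 0.235 ± 0.045 FPKM in hypoxia and 0.172 ± 0.049 FPKM in normoxia (two-sided exact permutation test, n = 6 each, p = 0.0498, unadjusted, 1 of 12). Without the filter on low values the limma adjusted p was 0.0720 in wild type (log2 difference 0.14) and 0.897 in double knockout (0.01).

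The remaining low members did not separate by oxygen. Zfp36 was 0.213 to 0.780 FPKM in wild type normoxia, 0.328 to 0.432 in wild type hypoxia, 0.435 to 0.589 in double knockout normoxia and 0.524 to 0.680 in double knockout hypoxia. Its means over both genotypes were 0.492 FPKM at either oxygen level (two-sided exact permutation test, n = 6 each, p = 0.957). Nr4a1 averaged 0.171 FPKM in hypoxia and 0.139 in normoxia (exact permutation p = 0.342), and Egr2 averaged 0.153 and 0.108 FPKM (exact permutation p = 0.208). Egr3 was above 0 in wild type normoxia replicate 3 (0.142 FPKM) and double knockout normoxia replicate 2 (0.0362 FPKM) and listed at 0 elsewhere. Between genotypes, over both oxygen levels, the exact permutation p of the 6 low members lay between 0.201 (Zfp36) and 1 (Egr3), and 3 libraries against 3 cannot give a p below 0.1. In hypoxia alone, every double knockout library was above every wild type library for Zfp36 (limma without the filter, adjusted p = 0.414). Groups were apart in that comparison in 35.8% of genes that averaged 1 FPKM or more.

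In normoxia the double knockout differed from wild type in Ier5. Of the 4 tested members, 1 was higher and 3 did not pass, where 8.16% of all genes were called, 3.84% higher and 4.32% lower. Ier5 was 53.9 to 58.1 FPKM in wild type normoxia and 66.2 to 73.5 FPKM in double knockout normoxia, as means 55.7 ± 2.18 and 70.04 ± 3.62 FPKM (SD, n = 3). The groups did not overlap, and the log2 difference was 0.32 ± 0.04 (SE; interval 0.23 to 0.42; limma adjusted p = 0.000484), rank 123 by p. Ier3 (0.17, adjusted p = 0.302) and Btg2 (0.14, adjusted p = 0.0698) were also higher in every double knockout library than in every wild type library, without passing the test; groups were apart in 25.7% of all genes. Ier2 was 7.09 ± 0.593 FPKM against 7.88 ± 0.412 FPKM in wild type (-0.14, adjusted p = 0.372). The Btg2 difference passed the threshold with quantile normalization, equal library medians, array weights or the trend on GC content and length removed, and without double knockout hypoxia replicate 3 (adjusted p 0.0338 to 0.0484). The median difference of the 4 members was 0.15, against -0.01 over all genes.

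In hypoxia the double knockout was higher in Ier3 and Ier5. Of the 4 members, 2 were higher and 2 did not pass, where 16.1% of all genes were called, 7.68% higher and 8.42% lower. Ier3 was 244.3 to 335.6 FPKM in wild type hypoxia and 371.6 to 404.3 FPKM in double knockout hypoxia, with a log2 difference of 0.44 ± 0.09 (SE; interval 0.25 to 0.63; limma adjusted p = 0.00566). Ier5 was 51.9 to 53.9 FPKM against 63.2 to 64.5 FPKM, a log2 difference of 0.27 ± 0.04 (SE; interval 0.18 to 0.36; limma adjusted p = 0.00111). Neither pair of groups overlapped, and groups were apart in 35.8% of all genes. Btg2 was 171.8 to 179.4 FPKM in wild type and 153.9 to 171.3 FPKM in double knockout, apart in the other direction, without passing the test (-0.12, adjusted p = 0.0906; 0.0305 with quantile normalization, 0.0467 without double knockout hypoxia replicate 2). Ier2 was 8.14 to 8.88 FPKM against 6.61 to 8.44 FPKM (-0.17, adjusted p = 0.174). The median difference of the 4 was 0.08, against -0.00 over all genes.

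Markers of other cells moved with genotype, and some with oxygen, beside these differences. The summed level of 8 leukocyte markers, 2 of which passed the filter, was 20.2 to 28.9 FPKM in the wild type libraries and 59.8 to 73.1 FPKM in the double knockout libraries. Most of it was Lyz2 (16.9 to 25.7 against 55.4 to 68.9 FPKM). Cd68, the other leukocyte marker that passed, overlapped between genotypes (2.29 to 3.63 against 2.51 to 3.65 FPKM). Below the filter, Csf1r overlapped too (0.180 to 0.390 against 0.143 to 0.346 FPKM), and Adgre1 was higher in double knockout (0.0715 to 0.149 against 0.168 to 0.290 FPKM). Cd3e was listed at 0 in all but 1 library. Ptprc, the pan-leukocyte marker, was 0.0820 to 0.312 FPKM in wild type and 0.287 to 1.28 FPKM in double knockout. The genotypes were apart for Ptprc in normoxia and overlapped in hypoxia. The same held for Cd79a (0.102 to 0.171 against 0.344 to 0.377 FPKM in normoxia). The sum of 5 fibroblast markers was 1.57 to 2.33 FPKM against 3.72 to 4.23 FPKM, mostly Dcn, with Lum at a mean of 0.0101 FPKM. The sum of 4 lymphatic endothelial markers was 482 to 593 FPKM against 372 to 445 FPKM, and none of them was at 0. Most of it was Lyve1 (335 to 408 against 235 to 279 FPKM). Pdpn went the other way in normoxia (48.8 to 54.1 against 59.98 to 61.5 FPKM) and overlapped between genotypes in hypoxia. The lymphatic sum also moved with oxygen in wild type (482 to 494 FPKM in normoxia, 519 to 593 in hypoxia), where 3 of the 4 markers rose; 2 of the 4 rose in double knockout hypoxia. The sum of 6 mural markers was 27.7 to 36.1 FPKM in wild type and 25.5 to 26.8 FPKM in double knockout normoxia. In hypoxia it was 34.9 to 45.6 against 27.4 to 32.8 FPKM, so the sum was lower in the double knockout at each oxygen level. Most of it was Tagln (20.96 to 41.5 FPKM). Acta2, the other mural marker that passed the filter, went the other way (1.96 to 3.92 FPKM in wild type, 4.24 to 6.22 FPKM in double knockout). The sum of 6 epithelial markers (25.2 to 31.5 FPKM) overlapped between genotypes at each oxygen level. The part of these markers in the Ier5 and Ier3 differences, between genotypes or with oxygen, was not tested.

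None of the 4 tested members was called for a difference between the genotypes in the hypoxia response. Over all genes 0.193% were called by limma in this comparison. Btg2 came nearest, with a response of 0.03 in wild type and -0.22 in double knockout, a difference of -0.26 ± 0.06 (SE; interval -0.39 to -0.12; limma adjusted p = 0.0908). For Ier3 the difference was 0.27 (interval 0.00 to 0.54; limma adjusted p = 0.307), with responses of 1.25 and 1.53. For Ier5 it was -0.06 (interval -0.18 to 0.07; limma adjusted p = 0.694) and for Ier2 -0.04 (interval -0.29 to 0.21; limma adjusted p = 0.908). At an unadjusted p under 0.05, 2 of the 4, Ier3 and Btg2, would pass, as would 16% of all genes. The median difference of the 4 was -0.05, against 0.00 over all genes.

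**Figure D4:**
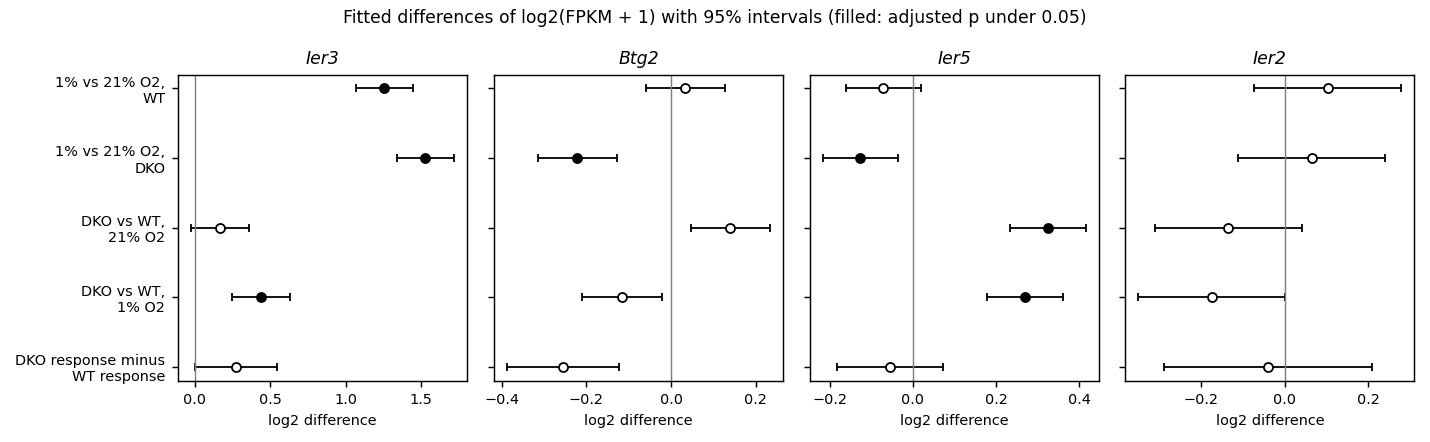
Fitted log2 differences (horizontal axes, each panel with its own scale) of the 4 tested genes with 95% intervals, for 5 comparisons; filled points have an adjusted p under 0.05. Ier3 has filled points at 1.25 and 1.53 for hypoxia, and no gene has a filled point in the bottom row.

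Over the 12 libraries the 4 tested members did not follow a common course. Pearson's r of log2(FPKM + 1) was -0.67 between Ier2 and Ier5, -0.55 between Ier3 and Btg2, 0.28 between Btg2 and Ier5 and 0.23 between Ier2 and Ier3, given as descriptions over libraries that share the group structure. Among 8032 other genes that averaged 5 FPKM or more, the course most like that of Ier3 was that of Orai2, a calcium channel subunit (r = 0.995), followed by Hif1a, the oxygen-regulated subunit of HIF-1, at the same rounded r. The nearest to Ier5 was Ctsh, a cysteine protease (r = 0.980). Ier2 was nearest to Aig1 (r = 0.9003) and Btg2 to Pde4b, a cAMP phosphodiesterase (r = 0.884). With 4 groups of 3 libraries, a gene that follows the group means reaches a high r.

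Immediate early genes outside the 10 members were examined as a list. Of 31 tested, 18 were higher and 0 lower in wild type hypoxia, with a median difference of 0.29 (log2) against 0.00 over all genes; 17 were higher and 6 lower in double knockout hypoxia, with a median of 0.21 against 0.01. The shares called over all genes were 20.8% and 39.3%. Errfi1, a feedback inhibitor of the EGF receptor, rose by 0.57 in wild type and 0.52 in double knockout, and Ppp1r15a, the stress-induced phosphatase subunit GADD34, by 0.52 and 0.52. Plk2, a polo-like kinase, rose by 0.39 and 0.44. Tnfaip3, an inhibitor of NF-kappaB signalling, rose by 1.08 and 0.65, and Csrnp1 by 0.53 and 0.88. One gene of this list was called for a difference between genotypes in the response: Dusp5, an ERK phosphatase, rose by 0.17 in wild type and fell by 0.30 in double knockout (difference -0.47, limma adjusted p = 0.0347). Between genotypes, 3 were higher and 2 lower in normoxia, and 5 higher and 8 lower in hypoxia, where 8.16% and 16.1% of all genes were called; Klf6 was lower in double knockout at both oxygen levels (-0.21 and -0.41), Klf2, a transcription factor of quiescent endothelium, was lower in hypoxia (-0.88; -0.16 in normoxia, not past the threshold), and Rhob, a small GTPase, was higher in normoxia (0.26; 0.05 in hypoxia, not past the threshold). This list was drawn up with earlier results of these data known.

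**Figure D5:**
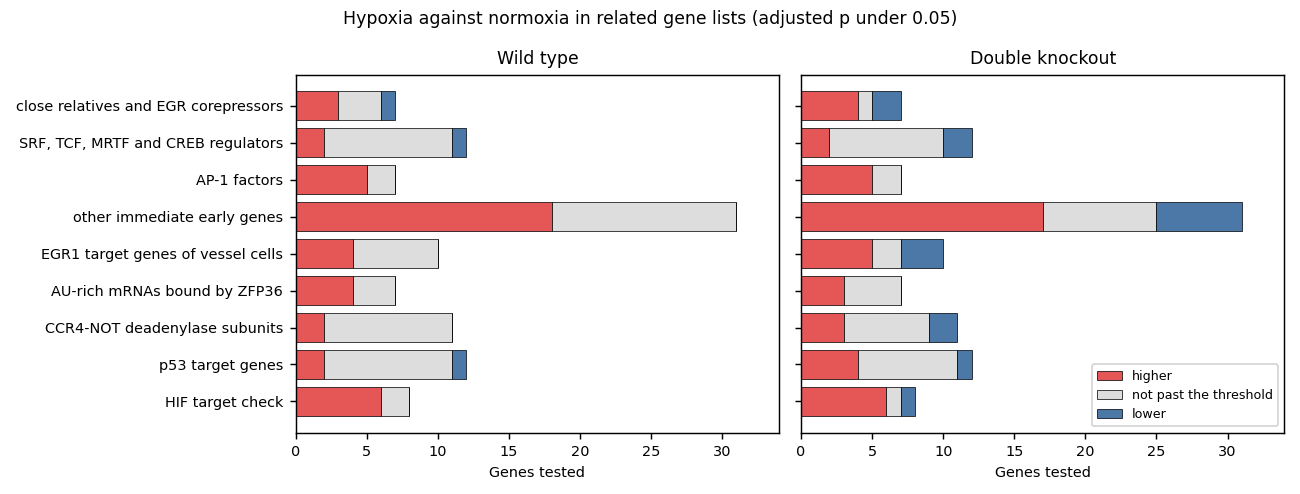
Genes tested in each related list (horizontal axis), split into higher, not past the threshold and lower in hypoxia against normoxia at an adjusted p under 0.05, in wild type (left) and double knockout (right). Of the 31 other immediate early genes, 18 were higher in wild type and 17 higher and 6 lower in double knockout.

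Of 7 tested AP-1 factors, the FOS, JUN, ATF and MAF proteins that act beside EGR1, 5 were higher in hypoxia and 0 lower in each genotype, where 20.8% (wild type) and 39.3% (double knockout) of all genes were called in either direction. Junb rose by 1.07 in wild type and 0.72 in double knockout, and Maff by 0.73 and 0.66. In the double knockout, compared with wild type, Atf3 was lower in normoxia (-0.27; -0.14 in hypoxia, not past the threshold), and Maff (-0.27) and Jund (-0.25) were lower in hypoxia (-0.19 and -0.02 in normoxia, not past the threshold). Among 12 tested regulators of the CArG and cAMP elements, 2 were higher and 1 lower in wild type hypoxia, and 2 were higher and 2 lower in double knockout hypoxia, numbers near the 20.8% and 39.3% called over all genes. Crem, which encodes cAMP response modulators, rose by 0.43 and 0.21, and the CREB coactivator gene Crtc3 by 0.40 and 0.29; Creb1 fell by 0.26 and by 0.37, and Elk1, an ETS partner of serum response factor, fell by 0.36 in double knockout (-0.12 in wild type, not past the threshold).

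The 7 tested close relatives and EGR corepressors gave 3 higher and 1 lower in wild type hypoxia, and 4 higher and 2 lower in double knockout hypoxia, beside 20.8% and 39.3% of all genes called. Btg1, an antiproliferative relative of Btg2, rose by 0.25 and 0.34 and Nab1, a corepressor of EGR proteins, by 0.16 and 0.31. Btg3 rose by 0.50 and 0.56. Zfp36l2 fell by 0.27 and by 0.59, and Ier5l, a relative of Ier5, fell by 0.60 in double knockout (-0.14 in wild type, not past the threshold). Of 11 tested subunits of the CCR4-NOT deadenylase, with which BTG2 and ZFP36 work, 2 were higher and 0 lower in wild type hypoxia, and 3 were higher and 2 lower in double knockout hypoxia, again near the shares over all genes. Cnot2 rose by 0.16 and 0.27 and the catalytic subunit gene Cnot7 by 0.20 and 0.34, while Cnot3 fell by 0.45 in double knockout (0.23 in wild type, not past the threshold).

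Genes known as targets of EGR1, ZFP36 or p53 were set beside the members; over all genes 20.8% were called in wild type hypoxia and 39.3% in double knockout hypoxia. Of 10 tested EGR1 targets of vessel cells, 4 were higher and 0 lower in wild type hypoxia, and 5 higher and 3 lower in double knockout hypoxia. Flt1, a VEGF receptor, rose by 0.25 and 0.46; Plau and Pdgfa fell by 0.15 and by 0.39 in double knockout (-0.09 and -0.13 in wild type, not past the threshold). Between genotypes, 3 EGR1 targets were higher in normoxia and 0 lower, and 3 higher and 1 lower in hypoxia, where 8.16% and 16.1% of all genes were called; Icam1, a leukocyte adhesion receptor, was higher in double knockout at both oxygen levels (0.39 and 0.37). Of 7 tested AU-rich mRNAs bound by ZFP36, 4 were higher and 0 lower in wild type hypoxia and 3 higher and 0 lower in double knockout hypoxia: Vegfa (2.76 and 2.82), Ptgs2 (0.89 and 1.39) and Plaur (0.39 and 0.63) in both, and Pim1 (0.23) in wild type (0.12 in double knockout, not past the threshold). Vegfa is also a HIF target. Of 12 tested p53 targets, a set to which Btg2 is often added, 2 were higher and 1 lower in wild type hypoxia and 4 higher and 1 lower in double knockout hypoxia, near the shares over all genes; Mdm2 rose by 0.33 and 0.50 and Cdkn1a by 0.31 and 0.32, while Bbc3 fell by 0.18 and by 0.32. Between genotypes in hypoxia, 6 p53 targets were higher in double knockout and 0 lower, where 16.1% of all genes were called, among them Cdkn1a (0.34), Ccng1 (0.25), Mdm2 (0.24) and Phlda3 (0.23). Btg2 went the other way in that comparison, without passing the threshold (-0.12, limma adjusted p = 0.0906).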

How the data were processed

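RNA of 12 libraries was compared, per the labels' protocols prepared with the RNeasy Plus and NEBNext Ultra kits. The authors deposited FPKM values of 52655 transcripts; the aligner was TopHat2 (per the submitters' processing notes). Not given in the sources used here are its version, the annotation, the genome build and how FPKM was computed. Transcripts were summed per gene identifier. The 11378 of 23422 genes that averaged 1 FPKM or more were fitted on log2(FPKM + 1) in limma 3.58.1 (R 4.3.3) with 1 coefficient per group, 8 residual degrees of freedom and a variance trend, and adjusted by Benjamini-Hochberg with a threshold of 0.05. The fit was tested on simulated data. No count model was used. Members below the filter were given by library and compared by two-sided exact permutation tests over 6 against 6 libraries. All 12 libraries were shuffled together, without regard to the other factor (genotype or oxygen).

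The members and lists were chosen with earlier results of these data known. Named were all 10 members; from each other list up to 4 members past the threshold with the smallest p, or the 2 highest where none passed, of which the text gives some (1 gene the rule chose is not reported here); and the nearest gene by Pearson's r among genes averaging 5 FPKM or more. Egr4, Nr4a3, Fos, Fosb, Arc and the levels of relatives were added after their values were seen. Depth was read from steps between the low values of 9301 genes with a single transcript, with 275 bases off each transcript; 88.4 to 91.0% of low values were within 0.1 of a whole fragment. The steps are approximate, so no counts were recovered. Same-numbered libraries did not pair. The alternatives were pseudocounts of 0.1 and 0.5, no filter, a filter at 5 FPKM, equal medians, quantile normalization, a replicate block, only the libraries compared, array weights, no variance trend, the main transcript alone and each library left out; a correction of each library for GC content and length was chosen after seeing the data.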

Additional observations from a re-analysis of the deposited data

How the results depend on the processing

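Of 476 alternative values for the 4 tested members, 456 kept their direction and side of the threshold, 6 lost a call, 8 gained one and 6 turned direction. The Ier3 calls held in all 24 alternatives of each comparison (highest adjusted p 0.000269 for wild type hypoxia, 6.22e-06 for double knockout hypoxia and 0.0319 between genotypes in hypoxia), as did the fall of Btg2 in double knockout hypoxia and the genotype differences of Ier5. The turned values were all of uncalled genes: Btg2 in wild type hypoxia with quantile normalization (-0.00027), Ier2 in double knockout hypoxia without double knockout hypoxia replicate 2 (-0.016), and the Ier2 difference between responses with array weights (0.012), with the trend on GC content and length removed (0.038), and without double knockout normoxia replicate 3 (0.0090) or double knockout hypoxia replicate 3 (0.036). With each library left out, Ier2 ranged from -0.016 to 0.139 in double knockout hypoxia and from -0.119 to 0.036 for the difference. The cause was not tested.

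Members called in wild type hypoxia numbered 2 instead of 1 with no filter (Nr4a2 joined) and with quantile normalization (Ier5), and in the double knockout against wild type in normoxia 2 instead of 1 with quantile normalization, equal library medians, array weights and the trend on GC content and length removed (Btg2). With each library left out in turn, members called ranged from 1 to 1 in wild type hypoxia, 2 to 3 in double knockout hypoxia, 1 to 2 between genotypes in normoxia, 2 to 3 in hypoxia and 0 to 0 for the difference. Over all genes the calls then ranged from 1384 to 2390 (2370 with all libraries; 1384 without wild type hypoxia replicate 1 and 1494 without replicate 2), 3696 to 4502 (4468), 587 to 930 (929; 587 without wild type normoxia replicate 2), 1174 to 1874 (1832; 1174 without wild type hypoxia replicate 2 and 1183 without double knockout hypoxia replicate 1) and 1 to 39 (22). Without the other libraries 615 genes were called between genotypes in normoxia. The 22 genes of the difference became 12 with quantile normalization, 6 with no variance trend and 153 with array weights.

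Same-numbered libraries shared no deviation (18 correlations, -0.0841 to 0.167, 1 over 0.1), so the replicate numbers were not taken as pairing; the replicate block left 1 gene of 22 called for the difference and changed no call of a member. No value of the libraries of the comparison alone exists for the difference, which uses all 12. No shift of the median of all genes exceeded 0.0236 (log2). Depth limits Egr1, Egr2, Egr3 and Nr4a1, at under 23 estimated fragments per library, to large changes.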
